A study of Homo sapiens with 2 samples.

Results

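MHC class I molecules carry peptides from inside the cell to its surface, where cytotoxic T cells and natural killer cells read them. Each is a heavy chain encoded by an HLA gene, bound to the invariant light chain beta-2 microglobulin (B2M). Peptides made largely by the proteasome are pumped into the endoplasmic reticulum by the TAP1 and TAP2 transporter, trimmed there by the aminopeptidase ERAP1, and loaded with the help of tapasin (TAPBP). The genes described here are 9 members of this pathway: the light chain B2M, the heavy chains HLA-B, HLA-C, HLA-E and HLA-F, and the transport and loading genes TAP1, TAP2, TAPBP and ERAP1. They were matched by Ensembl identifier to a symbol, and all 9 were found among the 58174 genes of the expression table.

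The data were RNA sequencing of PC3, an established human prostate cancer cell line. One library came from cells given POH1 siRNA and the other from cells given control siRNA, and both are otherwise unmodified PC3 cells as far as the labels say. POH1 is the product of PSMD14, a proteasome subunit that removes ubiquitin from substrates before they are degraded, and the comparison asks which transcripts differ when it is targeted. The siRNA sequences, their dose and the time of harvest are not stated. The values are TPM, a transcript abundance that accounts for transcript length, so levels of different genes can be compared within a library. Each group is a single library (n = 1), so there is no replicate error, no test was possible, and each comparison describes these cultures alone. The depth behind a TPM value is unknown. PSMD14 itself was at 35.1 TPM in the POH1 siRNA library and 50.9 TPM in the control siRNA library, so 69.0% of the control level remained. Its difference of log2(TPM + 1) was -0.52, within the 1.5-fold limit used below.

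The cell line label was set against marker genes. All 6 epithelial and PC3 markers were present, with KRT8 at 556 TPM in the POH1 siRNA library and 517 TPM in the control siRNA library. KLK3, the gene of prostate-specific antigen, was listed at 0 in both, and TMPRSS2, which was taken to be near 0 in these cells, was at 12.9 TPM in the POH1 siRNA library and 9.89 TPM in the control siRNA library. Of 8 leukocyte markers, 2 reached 1 TPM in each library, and their sum of 71.3 TPM in the POH1 siRNA library and 46.0 TPM in the control siRNA library was nearly all CD68, which encodes a lysosomal protein. The T cell marker CD3E and the B cell marker MS4A1 were listed at 0 in both libraries. PTPRC was at 0.057 TPM in the POH1 siRNA library and 0 in the control siRNA library. The 3 endothelial markers summed to 4.66 TPM in the POH1 siRNA library and 5.97 TPM in the control siRNA library. The 5 fibroblast markers summed to 47.9 TPM in the POH1 siRNA library and 31.3 TPM in the control siRNA library, nearly all of it COL1A1, while DCN and LUM were below 1 TPM in both. The part of these markers in the members' levels was not tested.

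The members were selected on their TPM in these libraries, because B2M and HLA-C were higher with POH1 siRNA while the others were not. The differences between libraries that follow therefore describe that choice and are not evidence for it. B2M and HLA-C were more than 3-fold higher in the POH1 siRNA library, and the 7 other members lay within 1.5-fold. The words higher and lower are used in counts for a difference of log2(TPM + 1) of at least 1.5-fold. By this rule 2 of the 9 members were higher and 0 were lower. Over the 15008 genes whose mean reached 1 TPM, 10.2% were higher, 8.88% were lower and 19.1% were either. With differences adjusted for GC content the members' count was the same, and 12.6% of genes were higher and 5.19% lower. The split of all genes depended on scaling: 1535 were higher and 1333 lower as deposited, 960 and 1845 with the median log2 ratio set to 0, 1004 and 1796 with a trimmed mean of log2 ratios, and 1886 and 778 with GC adjustment. All 9 members passed the filter at a mean of 1 TPM. After B2M, the next member in order was TAP1, at 0.32, inside the 1.5-fold limit. The median log2 difference of the members was 0.09, against 0.12 over all genes, so that a member near 0 lay slightly below the middle of all genes.

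**Figure D1:**
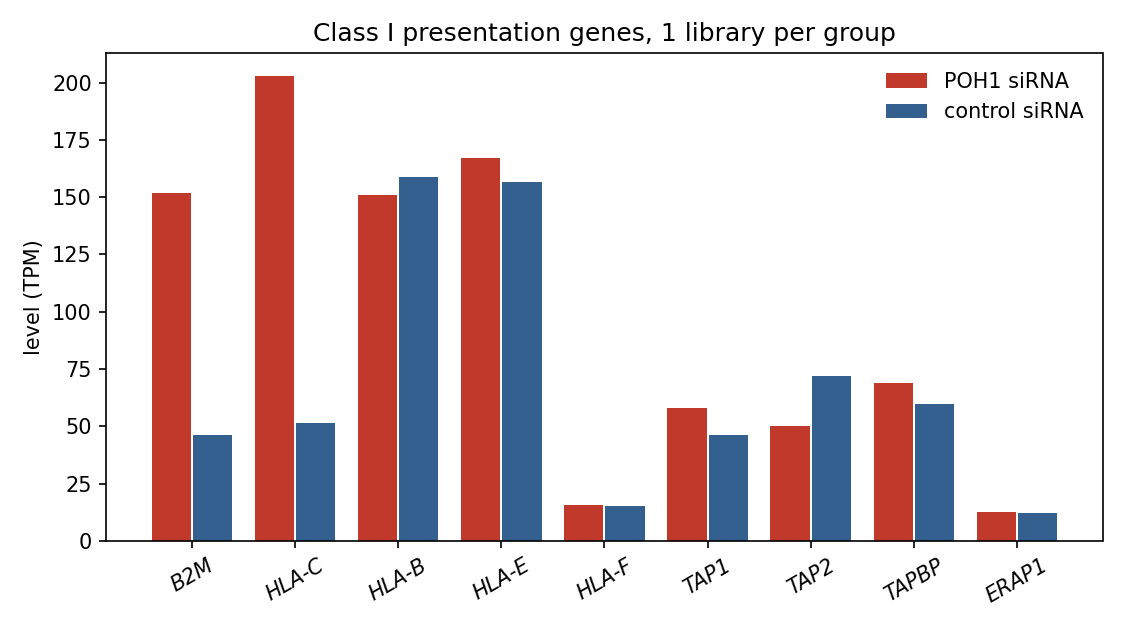
Level in TPM (bars, from 0) of each of the 9 genes in the POH1 siRNA library (left bar of each pair) and the control siRNA library (right bar), with 1 library per group and so no error bars. B2M and HLA-C stand well above their control bars, while HLA-B and HLA-E are at about the same height in both libraries.

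The light chain gene B2M (ENSG00000166710), at chr15:44711487-44718877 on the plus strand in GENCODE release 29 (GRCh38), was at 152 TPM in the POH1 siRNA library and 46.3 TPM in the control siRNA library. Its ratio was 3.28 and its log2 difference 1.69, which ranked 61 among all genes. B2M is the light chain that class I heavy chains generally need to fold and leave the endoplasmic reticulum. Of the 2245 genes within 2-fold of its mean level, 0.356% had a difference as high or higher. The differences of all genes in these libraries increased with GC content, and B2M transcripts are poor in GC, at a median of 40.5%. Among the 122 genes close to B2M in both level and GC content (within 2.5 percentage points), the median log2 difference was -0.33 and none was as high as B2M. Subtracting the running median over genes of like GC content gave B2M a log2 difference of 2.09.

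The heavy chain gene HLA-C (ENSG00000204525), at chr6:31268749-31272130 on the minus strand, whose product presents peptides to T cells and is the main ligand of killer-cell immunoglobulin-like receptors, was at 203 TPM in the POH1 siRNA library and 51.6 TPM in the control siRNA library. Its ratio was 3.93 and its log2 difference 1.95, which ranked 40 among all genes. Of 1849 genes within 2-fold of its mean level, 0.162% had a difference as high or higher. HLA-C transcripts are rich in GC, at a median of 61.4%, and the 437 genes close to it in level and GC content had a median log2 difference of 0.31, with none as high as HLA-C. After the GC adjustment its log2 difference was 1.78. B2M and HLA-C were picked for being high, so their place among genes of like level and GC content describes that choice.

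The other classical heavy chain among the members, HLA-B (ENSG00000234745), is annotated at chr6:31269491-31357188 on the minus strand. That span reaches into the one of HLA-C, though the annotated HLA-B exons cover 3051 bases in all. HLA-B was at 151 TPM in the POH1 siRNA library and 159 TPM in the control siRNA library, a log2 difference of -0.07. The nonclassical gene HLA-E (ENSG00000204592, chr6:30489467-30494205, plus strand), whose product presents leader peptides of other class I chains to the natural killer receptor CD94/NKG2A, was at 167 TPM in the POH1 siRNA library and 157 TPM in the control siRNA library, a log2 difference of 0.09. HLA-F (ENSG00000204642, chr6:29722775-29738528, plus strand), another nonclassical heavy chain, was at 15.7 TPM in the POH1 siRNA library and 15.2 TPM in the control siRNA library. The ratios of these 3 heavy chains lay between 0.951 and 1.07. Scaling that sets the median log2 ratio of all genes to 0 puts HLA-E at -0.04 and HLA-F at -0.08, so no direction is given for them.

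**Figure D2:**
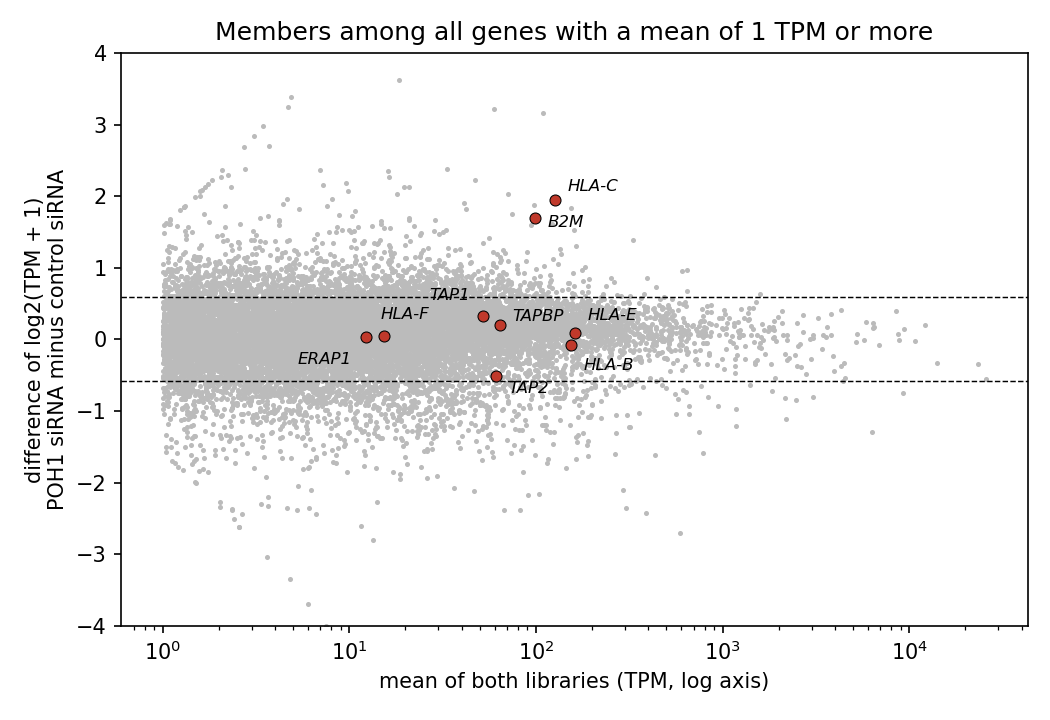
Difference of log2(TPM + 1), POH1 siRNA minus control siRNA, against the mean of both libraries in TPM on a log axis, for the 15008 genes that reached 1 TPM on average (grey) and the 9 members (red). Dashed lines mark a fold of 1.5, and 10 genes lie beyond the vertical range. HLA-C and B2M lie far above the upper line, TAP2 lies just inside the lower line, and the other members lie in the body of the genes.

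The order of the members by level was not the same in both libraries. HLA-C was at rank 1 of the 9 members in the POH1 siRNA library and rank 5 in the control siRNA library. Among the 4 heavy chain genes it made up 37.8% of the summed TPM in the POH1 siRNA library and 13.5% in the control siRNA library. The ratio of HLA-C to HLA-B within a library was 1.34 in the POH1 siRNA library and 0.326 in the control siRNA library. HLA-E was at rank 2 in both libraries, HLA-F at rank 8 and ERAP1 at rank 9. B2M was at rank 3 in the POH1 siRNA library and rank 6 in the control siRNA library. B2M amounted to 0.283 of the summed TPM of the 4 heavy chain genes in the POH1 siRNA library and 0.121 in the control siRNA library. With no replicates, neighbours in these orders cannot be set against a spread.

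The HLA genes are close copies, so a read can be placed on the wrong one. In GENCODE release 29 (GRCh38) the coding sequences of HLA-B and HLA-C, from 1 annotated transcript per gene, were identical at 92.4% of 1086 aligned bases, with 82 differing bases and a longest identical run of 66 bases. HLA-C was identical to HLA-E at 85.9% and to HLA-F at 84.9% of aligned bases. The stretches below are those that vary most and least in the coding sequence of the 4 genes, with capitals at each base that differs from HLA-C. The first set is the 60-base stretch that varies most, at 33 of its positions. It lies in exon 3, which encodes the alpha 2 domain of the peptide-binding groove. HLA-B differed from HLA-C there at 5 bases, HLA-E at 17 and HLA-F at 22. On GRCh38 it is at chr6:31271131-31271190 on the minus strand for HLA-C, chr6:31356225-31356284 on the minus strand for HLA-B, chr6:30490398-30490457 on the plus strand for HLA-E and chr6:29724331-29724390 on the plus strand for HLA-F.
HLA-C: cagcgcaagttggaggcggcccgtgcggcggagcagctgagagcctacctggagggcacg
HLA-B: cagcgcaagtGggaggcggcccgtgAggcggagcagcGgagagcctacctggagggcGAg
HLA-E: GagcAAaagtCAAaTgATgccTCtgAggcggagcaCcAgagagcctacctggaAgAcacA
HLA-F: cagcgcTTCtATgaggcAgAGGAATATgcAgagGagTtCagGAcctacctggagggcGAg

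The other stretch is the one that varies least, in exon 4, which encodes the alpha 3 domain that contacts B2M and CD8. It is the same in HLA-C, HLA-E and HLA-F, and HLA-B differs at 1 base. Its place is chr6:31270393-31270452 on the minus strand for HLA-C and chr6:31355500-31355559 on the minus strand for HLA-B.
HLA-C: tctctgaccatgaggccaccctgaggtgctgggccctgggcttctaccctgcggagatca
HLA-B: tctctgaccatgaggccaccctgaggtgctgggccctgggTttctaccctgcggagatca

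Exact copies were rare in the reference transcripts. Of all 100-base windows in HLA-C transcripts, 0.126% also occurred in a transcript of another gene, and 0.491% did for HLA-E, while none did for HLA-B and HLA-F. With 50-base windows, 5.38% of HLA-C windows and 2.72% of HLA-B windows occurred in another gene, and 81 windows were shared by HLA-B and HLA-C. The read length is not stated. Windows came from the reference alleles, and the alleles of PC3 cells and the hg19 build of the submitters' processing notes were not used here. HLA-B and HLA-C also share 35 bases of annotated same-strand exon. The part of misplaced reads in the HLA-C difference was not tested.

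Sums over the copies are less sensitive to how reads were placed among them. All 17 class I heavy chain genes and pseudogenes in the table summed to 943 TPM in the POH1 siRNA library and 780 TPM in the control siRNA library, a ratio of 1.21. Without HLA-C the sum of the other 16 was 741 TPM in the POH1 siRNA library and 728 TPM in the control siRNA library, a ratio of 1.02. HLA-C was 151 TPM higher in the POH1 siRNA library, and the 16 others together were 12.3 TPM higher. The sum of HLA-B and HLA-C was 354 TPM in the POH1 siRNA library and 210 TPM in the control siRNA library, a ratio of 1.68. Of the class I pseudogenes, 3 of 11 reached a mean of 1 TPM, 0 were higher, 0 were lower and the median log2 difference was 0.01. The pseudogene HLA-H was at 22.6 TPM in the POH1 siRNA library and 22.4 TPM in the control siRNA library, and HLA-V was at 5.42 TPM in the POH1 siRNA library and 5.84 TPM in the control siRNA library.

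**Figure D3:**
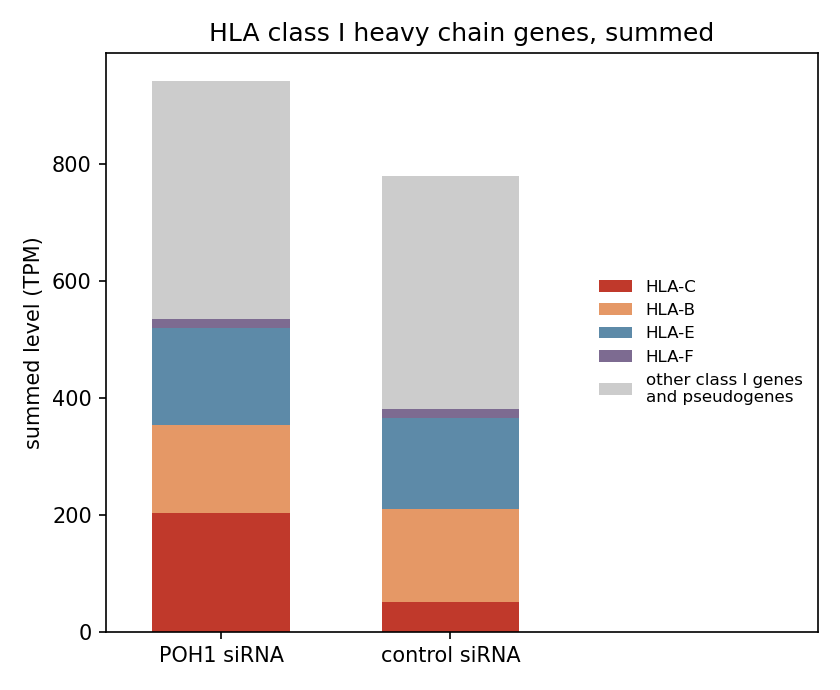
Summed level in TPM of the class I heavy chain genes in the POH1 siRNA library (left bar) and the control siRNA library (right bar), stacked as HLA-C, HLA-B, HLA-E, HLA-F and all other class I genes and pseudogenes. The total is 943 TPM in the POH1 siRNA library and 780 TPM in the control siRNA library, and the HLA-C segment is 203 TPM in the POH1 siRNA library and 51.6 TPM in the control siRNA library, while the other segments are of similar height.

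The transporter subunits lay on opposite sides of 0 in all 9 settings tried, though a change of filter cannot move a member's own difference. Both subunits lay within 1.5-fold as deposited. TAP1 (ENSG00000168394, chr6:32845209-32853978, minus strand) was at 57.9 TPM in the POH1 siRNA library and 46.2 TPM in the control siRNA library, a log2 difference of 0.32. TAP2 (ENSG00000204267, chr6:32821833-32838780, minus strand) was at 50.1 TPM in the POH1 siRNA library and 72.1 TPM in the control siRNA library, a log2 difference of -0.52. TAP1 and TAP2 pair to form 1 transporter, and the ratio of TAP1 to TAP2 within a library was 1.16 in the POH1 siRNA library and 0.641 in the control siRNA library. TAP2 was the member nearest to the lower limit: it lay past it, at -0.65, with the median log2 ratio of all genes set to 0. TAP2 shares 30.3% of its 100-base windows with AL669918.1, an overlapping same-strand gene that was at 0.433 TPM in the POH1 siRNA library and 1.52 TPM in the control siRNA library. Their sum was 50.6 TPM in the POH1 siRNA library and 73.6 TPM in the control siRNA library, a log2 difference of -0.53.

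Tapasin, which bridges TAP and the heavy chain and helps to select stable peptides, is encoded by TAPBP (ENSG00000231925, chr6:33299694-33314387, minus strand). It was at 69.0 TPM in the POH1 siRNA library and 59.7 TPM in the control siRNA library, a log2 difference of 0.20. ERAP1 (ENSG00000164307, chr5:96760810-96808100, minus strand), which shortens peptides from their amino end, was at 12.5 TPM in the POH1 siRNA library and 12.2 TPM in the control siRNA library, a log2 difference of 0.04. ERAP1 transcripts are poor in GC, at a median of 43.1%, and its GC-adjusted log2 difference was 0.41. With the median log2 ratio of all genes set to 0, ERAP1 was at -0.09, so no direction is given for it.

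Some members overlap genes on the opposite strand, and it is not stated whether reads were assigned by strand. In GENCODE release 29, ERAP1 shares 3.76% of its exon bases with CAST, the calpastatin gene, which was at 49.0 TPM in the POH1 siRNA library and 68.8 TPM in the control siRNA library. TAP1 shares 9.49% with PSMB8-AS1, at 2.38 TPM in the POH1 siRNA library and 2.47 TPM in the control siRNA library. HLA-F shares 5.92% with the pseudogene RPL23AP1, at 1.33 TPM in the POH1 siRNA library and 10.9 TPM in the control siRNA library, and 12.3% with HLA-F-AS1, at 3.71 TPM in the POH1 siRNA library and 2.94 TPM in the control siRNA library. No gene annotated there shares exon bases with B2M, HLA-E or TAPBP, and none of the 100-base windows of B2M occurs in another gene.

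Class I promoters are known for a conserved module of an X2 box bound by CREB and ATF proteins and a Y box bound by NF-Y, on which the transactivator NLRC5 assembles, and for upstream sites of NF-kB and interferon regulatory factors (IRF). RefSeq promoter windows (GRCh38.p14) were found for 8 of the 9 members and not for HLA-E. The 250 bases before the annotated start are printed for B2M and HLA-C, which were higher in the POH1 siRNA library, and for HLA-B, which lay within 1.5-fold. Capitals mark matches on either strand to the X2 core TGACG, the CCAAT box CCAAT, the IRF element GAAANNGAA and the kB core GGANTNNCC, where N is any base. They lie at chr15:44711267-44711516 on the plus strand for B2M, chr6:31272093-31272342 on the minus strand for HLA-C and chr6:31357180-31357429 on the minus strand for HLA-B.
B2M: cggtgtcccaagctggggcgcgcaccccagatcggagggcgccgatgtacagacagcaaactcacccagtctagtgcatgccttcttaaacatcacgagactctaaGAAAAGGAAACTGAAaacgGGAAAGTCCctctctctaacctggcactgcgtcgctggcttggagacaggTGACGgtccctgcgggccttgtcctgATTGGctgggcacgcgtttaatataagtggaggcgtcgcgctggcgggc
HLA-C: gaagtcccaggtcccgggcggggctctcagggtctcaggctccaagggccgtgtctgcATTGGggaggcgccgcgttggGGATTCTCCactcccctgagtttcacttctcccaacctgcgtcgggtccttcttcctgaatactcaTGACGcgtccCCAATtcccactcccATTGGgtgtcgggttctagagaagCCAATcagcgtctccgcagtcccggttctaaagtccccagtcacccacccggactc
HLA-B: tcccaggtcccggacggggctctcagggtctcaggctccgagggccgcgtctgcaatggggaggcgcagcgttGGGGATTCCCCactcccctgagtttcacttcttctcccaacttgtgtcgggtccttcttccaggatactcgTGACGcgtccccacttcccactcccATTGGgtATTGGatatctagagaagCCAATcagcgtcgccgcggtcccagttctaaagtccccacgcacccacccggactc

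All 3 of these windows held the X2 core, the CCAAT box and the kB core. Of the 3, only B2M held an exact match to the IRF pattern GAAANNGAA. Looser forms of the IRF site were not searched, so a window without a match may still hold such a site. The X2 core was found 75 to 71 bases before the start in B2M, 105 to 101 in HLA-C and 106 to 102 in HLA-B. The kB core was at 125 to 117 bases before the start in B2M, on the minus strand, and at 171 to 163 in HLA-C. HLA-B held overlapping kB matches on both strands, between 177 and 167. Of the 8 members with a window, 4 held the X2 core, where 21.2% of all 35116 RefSeq windows did. The CCAAT box was in windows of 6 members and in 32.0% of all windows. The IRF pattern GAAANNGAA was in windows of 5 members (B2M, HLA-F, TAP1, TAP2 and TAPBP) and in 6.88% of all windows. The kB core was in windows of 5 members and in 12.0% of all windows. The SP1 site GGGCGG was in windows of 4 members and in 42.6% of all windows, and the full site TGACGTCA was in none of the members' windows and in 1.65% of all. The HLA-C and HLA-B windows did not differ in which of the X2, CCAAT, IRF and kB patterns they matched. The SP1 site was in the HLA-C window and not in that of HLA-B. TAP1 and ERAP1 have 2 RefSeq windows each, and a match in either was counted.

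**Figure D4:**
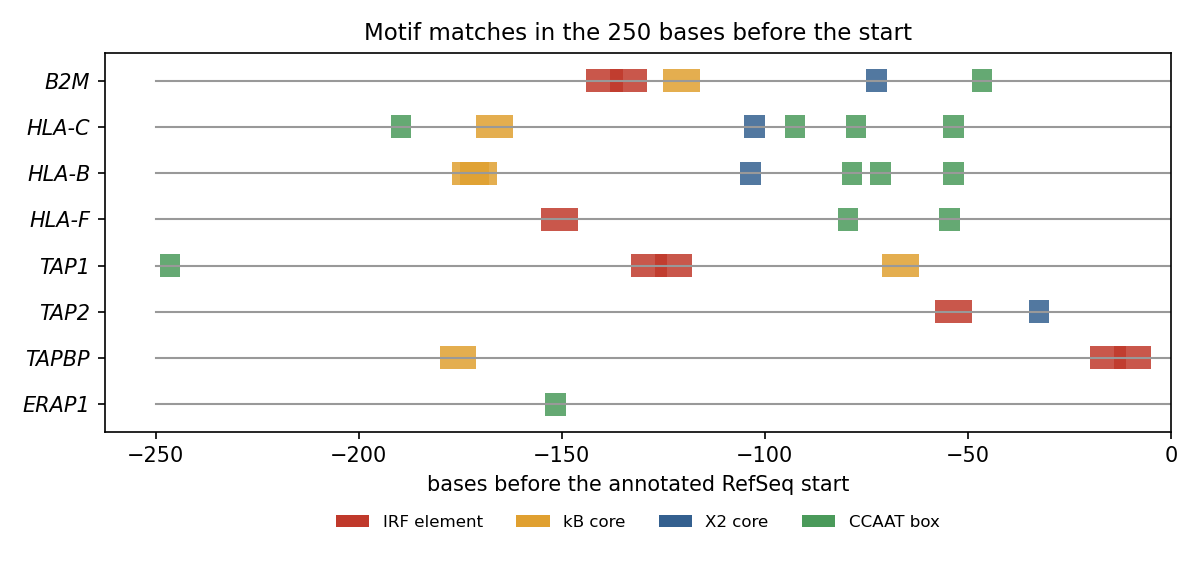
Matches to the IRF element, kB core, X2 core and CCAAT box (coloured blocks, either strand) by distance in bases before the annotated RefSeq start, for the first window of each of 8 members. HLA-C and HLA-B have the kB core and the X2 core at nearly the same distances. They also share CCAAT boxes at 56 to 52 bases and at 80 to 76 (HLA-C) or 81 to 77 (HLA-B). HLA-C has further CCAAT boxes at 192 to 188 and 95 to 91, and HLA-B has a further CCAAT box at 74 to 70. B2M has the kB core, X2 core and CCAAT box closer to the start, with overlapping matches to the IRF pattern GAAANNGAA upstream.

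No gene tested in the other lists of the pathway had a difference as large as those of B2M and HLA-C. Of 13 tested class I and class I-like genes outside the members, 1 was higher, 0 were lower and the median log2 difference was 0.21. The higher gene was ULBP3, a stress-induced ligand of the activating receptor NKG2D, at 9.71 TPM in the POH1 siRNA library and 4.98 TPM in the control siRNA library. RAET1L, of the same ligand family, was at 8.66 TPM in the POH1 siRNA library and 5.84 TPM in the control siRNA library. FCGRT, whose product is the heavy chain of the neonatal Fc receptor and also pairs with B2M, was at 84.1 TPM in the POH1 siRNA library and 62.0 TPM in the control siRNA library. With GC adjustment 3 of the 13 were higher and 0 lower: ULBP3, RAET1L at 0.60 and MR1, picked with its values known, also at 0.60.

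Of 9 genes for heavy chain folding and peptide editing, 0 were higher, 1 was lower and the median was 0.23. The lower gene was PDIA3, the disulfide isomerase that pairs with tapasin in the peptide-loading complex, at 111 TPM in the POH1 siRNA library and 178 TPM in the control siRNA library. Its GC-adjusted log2 difference was -0.44, within 1.5-fold, so that 0 of the 9 were lower with GC adjustment and 1, CANX at 0.59, was higher. CANX, which encodes calnexin, the chaperone of newly made heavy chains, was at 77.3 TPM in the POH1 siRNA library and 56.3 TPM in the control siRNA library. GANAB, a glucosidase II subunit that trims the glycans calnexin binds, was at 341 TPM in the POH1 siRNA library and 258 TPM in the control siRNA library.

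Genes of peptide supply (catalytic and activator subunits of the proteasome and peptidases) numbered 17, of which 0 were higher and 2 were lower, with a median log2 difference of -0.14. The lower genes were PSME3 and NRDC. With GC adjustment 1 was lower, PSME3 at -0.69, and NRDC was at -0.48, within 1.5-fold. The proteasome activator PSME3 was at 23.2 TPM in the POH1 siRNA library and 39.6 TPM in the control siRNA library. The peptidase gene NRDC was at 79.9 TPM in the POH1 siRNA library and 134 TPM in the control siRNA library. BLMH, another peptidase gene, was at 9.08 TPM in the POH1 siRNA library and 12.2 TPM in the control siRNA library. The immunoproteasome subunits PSMB8 and PSMB9 were picked with their values known and lay within 1.5-fold. PSMB8 was at 99.9 TPM in the POH1 siRNA library and 92.3 TPM in the control siRNA library, and PSMB9, which shares a promoter region with TAP1, was at 26.5 TPM in the POH1 siRNA library and 23.1 TPM in the control siRNA library.

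Transcription factors that bind class I promoters numbered 14, of which 1 was higher and 0 were lower, with a median log2 difference of 0.07. The higher gene was NFYA, a subunit of NF-Y, at 39.3 TPM in the POH1 siRNA library and 25.2 TPM in the control siRNA library. IRF1, an interferon-induced activator of class I genes, was at 34.1 TPM in the POH1 siRNA library and 24.8 TPM in the control siRNA library. NLRC5, picked with its values known, was at 7.35 TPM in the POH1 siRNA library and 5.52 TPM in the control siRNA library. Genes of interferon receptors and signalling with a mean of at least 1 TPM numbered 12, of which 1 was higher and 0 were lower, with a median log2 difference of 0.27. The higher gene was STAT2, whose log2 difference of 0.59 was just past the limit, at 121 TPM in the POH1 siRNA library and 80.1 TPM in the control siRNA library. SOCS3, a feedback inhibitor of JAK kinases, was at 56.0 TPM in the POH1 siRNA library and 37.7 TPM in the control siRNA library. With GC adjustment 2 of the 14 transcription factors and 2 of the 12 interferon signalling genes were higher and 0 were lower, with NFYA at 0.74 and STAT2 at 0.59. The part of these factors in the levels of B2M and HLA-C was not tested.

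Of 10 genes for the turnover of class I molecules, 0 were higher and 0 were lower, with a median of 0.21. With GC adjustment 2 were higher, SEL1L at 0.91 and DERL1 at 0.66, and 0 were lower. SEL1L, which works in degradation from the endoplasmic reticulum, was at 8.44 TPM in the POH1 siRNA library and 5.49 TPM in the control siRNA library. SUSD6, which takes class I molecules to degradation, was at 22.7 TPM in the POH1 siRNA library and 15.7 TPM in the control siRNA library. DERL1, of the same degradation machinery, was at 83.2 TPM in the POH1 siRNA library and 62.1 TPM in the control siRNA library. MHC class II genes were low. Of 13, 3 reached a mean of 1 TPM, 2 of these were higher and 0 lower, and the median was 0.60. With GC adjustment 1 was higher, HLA-DQB1 at 0.78, and HLA-DMA was at 0.54, within 1.5-fold. HLA-DMA, a chain of the class II peptide editor, was at 16.2 TPM in the POH1 siRNA library and 10.4 TPM in the control siRNA library, and the other higher gene was HLA-DQB1, picked with its values known, at 2.86 TPM in the POH1 siRNA library and 1.32 TPM in the control siRNA library.

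**Figure D5:**
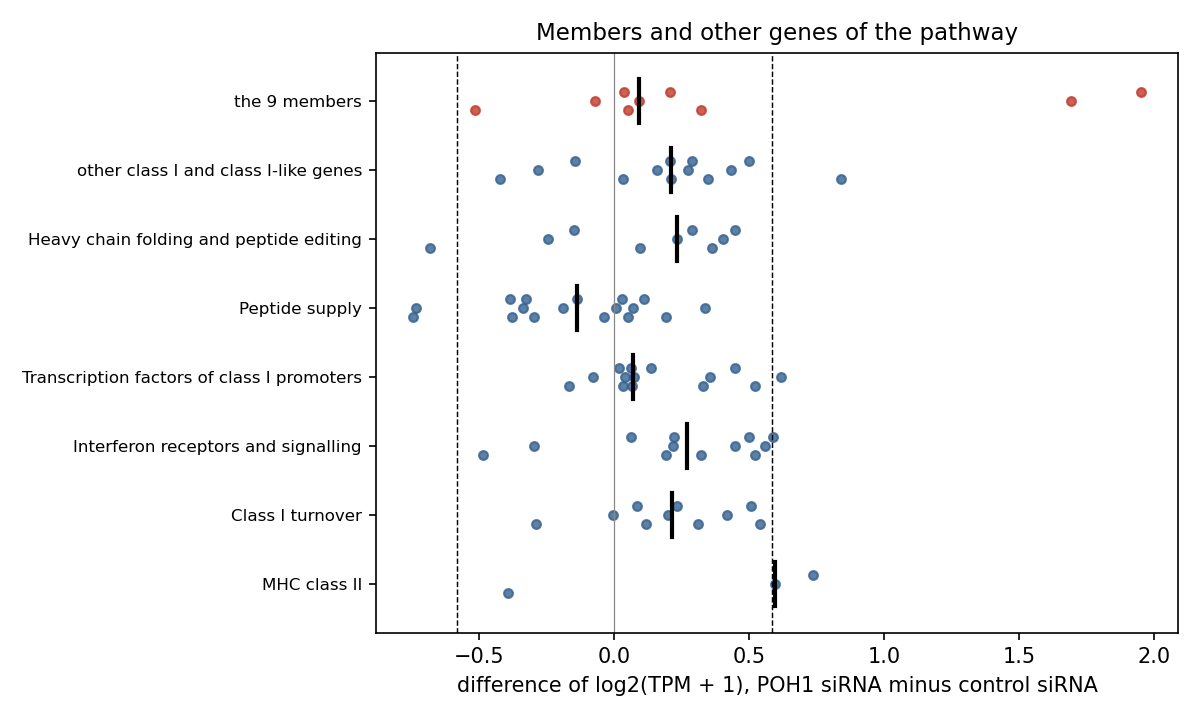
Difference of log2(TPM + 1), POH1 siRNA minus control siRNA, for each gene that reached 1 TPM on average (points) in the 9 members and in 7 other lists of the pathway, with black bars at the list medians and dashed lines at a fold of 1.5. B2M and HLA-C lie beyond every other gene plotted, and most genes of the other lists lie between the dashed lines.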

How the data were processed

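Gene expression was measured in 1 library of PC3 cells with POH1 siRNA and 1 with control siRNA. The deposited values are TPM per gene, with columns that sum to 999968 TPM in the POH1 siRNA library and 999955 TPM in the control siRNA library. The tools named in the submitters' processing notes are CASAVA and HISAT2, with build hg19. Their versions, the annotation, the tool that gave TPM, the use of strand, the read length and the depth are not stated.

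Symbols were matched by Ensembl identifier for 57392 of 58174 genes. Differences are log2(TPM + 1) in the POH1 siRNA library less that in the control siRNA library, over genes whose mean reached 1 TPM. The pseudocount makes them smaller than the ratio for low genes. Ratios are of deposited TPM. GC content is the median over a gene's GENCODE release 29 transcripts, known for 99.8% of these genes. The GC adjustment subtracts a running median along GC content, taken over 501 genes that reached 5 TPM, and adds back the overall median. Coding sequences were aligned with mafft 7.526, and the rest used Python 3.11.15 with pandas 2.3.3 and numpy 2.4.6. The calculations were tested on simulated data.

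The members and lists were chosen with earlier results of these data known. Of each other list, the 3 genes with the largest difference among those with a mean of 5 TPM or more are named. Some genes that this rule or the marker lists name are not reported here. No p-value, error or depth interval can be given.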

Additional observations from a re-analysis of the deposited data

How the results depend on the processing

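No paired analysis was possible because each group holds 1 library, and for the same reason no library could be left out. In all 9 settings (the one reported and 8 alternatives) B2M and HLA-C were the only members past 1.5-fold higher, with log2 differences from 1.56 to 2.09 for B2M and from 1.78 to 1.97 for HLA-C. TAP2 ran from -0.65 to -0.48, and 1 member, TAP2, was past 1.5-fold lower with median scaling, with trimmed mean scaling and without mitochondrial and the 50 most abundant genes, against 0 as reported. The median of the members was -0.044 with median scaling and -0.032 with trimmed mean scaling, against 0.09 as reported. The median of all genes, 0.12 as reported, was 8.8e-05 and 0.0103 with these scalings and 0 with no filter, and under both scalings HLA-E, HLA-F and ERAP1 were below 0, as were HLA-E and HLA-F with GC adjustment and HLA-F and ERAP1 without the most abundant genes. Genes 1.5-fold higher numbered 1535 as reported, 636 with a pseudocount of 5, 952 with a filter at 5 TPM, 960 with median scaling and 1004 with trimmed mean scaling. Genes 1.5-fold lower numbered 1333 as reported, 668 with a pseudocount of 5, 855 with a filter at 5 TPM and 778 with GC adjustment. The summed heavy chain log2 difference was 0.49 over the 4 members, against 0.27 over all 17 genes, and the median share of windows found in another gene was 2.72% with 50 bases and 0 with 100 bases. The cause of these shifts was not tested. The settings with no filter and with a filter at 5 TPM cannot move a member's own difference. Unknown depth limits every value.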
